A study of Xenopus tropicalis with 11 samples.

Results

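The regions described here are those where a peak of the co-repressor Tle at stage 8 and a peak of the forkhead factor Foxa at stage 10.25 lie at the same place in Xenopus tropicalis embryos. A Foxa peak and a Tle peak were paired when they overlapped by at least 1 base. This gave 5610 pairs, made of 5575 of the 40925 Foxa peaks and 5507 of the 37919 Tle peaks. The series holds 139160 peaks in 6 lists.

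Binding was mapped by chromatin immunoprecipitation and sequencing (ChIP-seq) of whole embryos of the Nigerian strain, with no genetic change or drug named in the labels. The Foxa group is 1 library of stage 10.25, the start of gastrulation, and the Tle group is 1 library of stage 8, a blastula stage around the onset of zygotic transcription. The Foxh1 groups of stages 9 and 8 each stand for 2 pooled replicates. All embryos were reared at 25 °C and fixed for 45 min in 1% formaldehyde, the Tle library came from a different kit than the rest, and the antibodies are labelled Foxa and TLE without a paralogue. Names of the deposited Foxa peaks carry the name Foxa2. Whole embryos mix all cell types, so a Foxa peak and a Tle peak at the same place need not come from the same cells, and the stages differ too.

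Foxa proteins are forkhead factors of the endoderm and the organizer that can bind their sites in closed chromatin. Tle proteins belong to the Groucho family of co-repressors. They do not bind DNA themselves and are brought to it by other factors, among them forkhead factors with a short Groucho-binding motif. Foxh1, a maternally supplied forkhead factor, acts with Smad2/3 downstream of Nodal signals, which drive formation of mesoderm and endoderm. Tle at stage 8 precedes Foxa at stage 10.25, so the overlap asks which places with the early co-repressor later carried Foxa.

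Most Foxa and Tle peaks were not at the same place. A Tle peak was present at 13.6% of the Foxa peaks (Wilson 95% interval 13.3 to 14.0%), and a Foxa peak at 14.5% of the Tle peaks (14.2 to 14.9%). These intervals cover the counting error of peaks only, since there is 1 list per factor and no spread between embryos can be given. The shared stretches amounted to 1.34 Mb, or 12.2% of the bases in Foxa peaks and 11.3% of those in Tle peaks. Nearly all pairs were simple: 5338 (95.2%) joined 1 Foxa peak with 1 Tle peak, 35 Foxa peaks met 2 Tle peaks, and 100 Tle peaks met more than 1 Foxa peak. The overlap was spread over the genome. On the 10 scaffolds with the most peaks, which held 95.7% of the pairs, the share of Foxa peaks with Tle ranged between 9.47 and 15.2%. The share of Tle peaks with Foxa ranged between 13.3 and 17.3% there. Scaffold 10 had both the lowest Foxa share and the highest Tle share, with 1320 Foxa and 723 Tle peaks.

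Foxh1 marked the great majority of the shared places. A Foxh1 peak of stage 8 or 9 overlapped the stretch shared by Foxa and Tle in 4864 of the 5610 pairs (86.7%, 85.8 to 87.6%). Foxh1 was found there at both stages in 3710 pairs (66.1%), at stage 9 only in 960 (17.1%), at stage 8 only in 194 (3.46%) and at neither in 746 (13.3%). Over all peaks, 28.0% of the Foxa peaks and 48.7% of the Tle peaks overlapped Foxh1 of either stage. The Foxa peaks with Tle had Foxh1 in 86.9%, and those without Tle in 18.7% (18.3 to 19.1%). The Tle peaks with Foxa had Foxh1 in 87.2%, and those without Foxa in 42.1% (41.6 to 42.7%). By scaffold, the share of pairs with Foxh1 ranged between 84.5 and 88.5% over the 10 scaffolds with the most peaks.

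With Foxh1 of either stage, 4846 of 11457 Foxa peaks had a Tle peak (42.3%, 41.4 to 43.2%), and without it 729 of 29468 (2.47%, 2.30 to 2.66%). That is a ratio of 17.1. From the other side, 4801 of 18454 Tle peaks with Foxh1 had a Foxa peak (26.0%, 25.4 to 26.7%), and 706 of 19465 without Foxh1 (3.63%, 3.37 to 3.90%), a ratio of 7.17. In all, 5575 Foxa peaks had a Tle peak, against 1012 had every Foxa peak been shared as often as those without Foxh1. By this count 81.8% of the shared Foxa peaks stood above the share found without Foxh1. For Tle peaks 5507 were observed, against 1375 by the same count, so 75.03% stood above it. Weaker Foxh1 binding below the thresholds of the deposited lists would be counted as no Foxh1 here. With only the upper 50% of each Foxh1 list by score, 73.0% of the pairs held Foxh1, and the Tle peaks had Foxa in 32.0% with and 5.80% without it.

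The stage of Foxh1 went with different patterns in the 2 lists. Tle peaks with Foxh1 at stage 9 only had a Foxa peak most often, in 939 of 1860 (50.5%, 48.2 to 52.8%). Tle peaks with Foxh1 at both stages followed with 3674 of 10794 (34.0%, 33.1 to 34.9%). Tle peaks with Foxh1 at stage 8 only had Foxa in 188 of 5800 (3.24%, 2.82 to 3.73%), close to the 3.63% of Tle peaks with no Foxh1, and these intervals overlap. Foxh1 at the same stage as Tle, when it was not found again at stage 9, thus went with no higher share of later Foxa.

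Foxa peaks showed a different order. Those with Foxh1 at both stages had a Tle peak in 3708 of 5419 (68.4%, 67.2 to 69.7%), and those with Foxh1 at stage 8 only in 191 of 336 (56.8%, 51.5 to 62.0%). Foxa peaks with Foxh1 at stage 9 only had Tle in 947 of 5702 (16.6%, 15.7 to 17.6%), above the 2.47% without Foxh1. Each share was thus high where Foxh1 came from the stage nearer to that of the other factor: stage 8 for Tle, stage 9 for Foxa. Foxh1 peaks as a whole showed the same order. Tle was at 61.4% of those of both stages, 53.3% of those of stage 8 only and 15.3% of those of stage 9 only. Foxa was at 30.2, 2.78 and 45.2% of them. The order is therefore not particular to Foxa peaks or Tle peaks. Few Foxa peaks had Foxh1 at stage 8 only, so that class rests on 336 peaks.

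**Figure D1:**
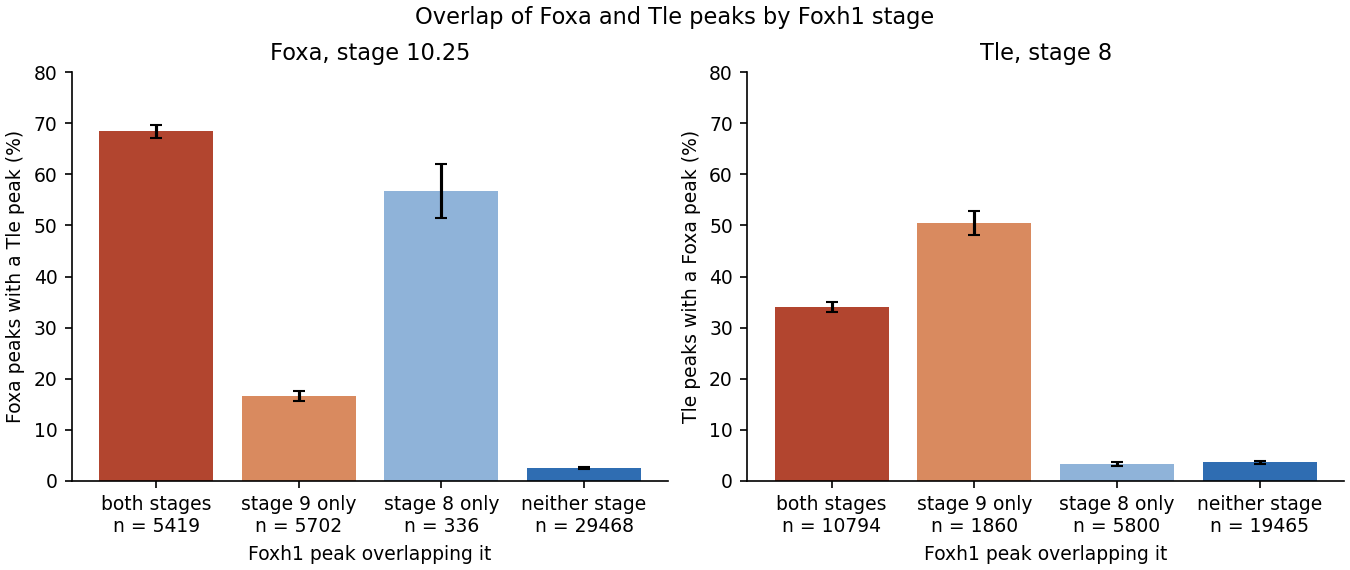
Share of Foxa peaks with a Tle peak (left) and of Tle peaks with a Foxa peak (right), in percent, by the stages at which a Foxh1 peak overlapped the peak; bars are shares, whiskers are Wilson 95% intervals and n is the number of peaks. Foxa peaks had Tle in 68.4% where Foxh1 was present at both stages and in 2.47% where it was at neither, and Tle peaks with Foxh1 at stage 8 only (3.24%) stood level with those with none (3.63%).

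Higher peaks were shared more often in both lists. The score is the value that the authors' peak caller gave each peak, and each list was cut into deciles by it, from 1 (lowest) to 10 (highest). The share of Foxa peaks with Tle was 7.55, 8.80, 8.55, 9.12 and 9.80% in deciles 1 to 5. It was 11.2, 12.7, 14.9, 20.3 and 33.4% in deciles 6 to 10. The increase was thus slow over most of the list and steep in its upper end, with decile 10 (scores of 42.9 to 238) at 4.42 times decile 1 (scores of 3.03 to 5.40). The share of Tle peaks with Foxa was 6.14, 5.78, 10.1, 8.60 and 14.0% in deciles 1 to 5. It was 15.2, 18.0, 18.0, 23.4 and 26.0% in deciles 6 to 10, and the step from decile 1 to decile 10 was 4.22 times. The lower Tle deciles are not sharply separated, since 5342 Tle peaks (14.1%) carry the same score of 4.35, and peaks of equal score were ordered by position.

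Once peaks were divided by Foxh1, the shares depended far less on the score. Foxa peaks with Foxh1 had Tle in 42.5% in the lowest and 46.6% in the highest decile, with a range of 39.5 to 46.6% over all 10 deciles. Foxa peaks without Foxh1 had Tle in 2.17% in the lowest and 2.99% in the highest decile, with a range of 2.08 to 3.38%. What changed with the score was the share of peaks that had Foxh1, which was 13.3% in the lowest and 69.7% in the highest decile of the Foxa list. The observed shares were 7.55% in the lowest and 33.4% in the highest decile. Taking the share with Foxh1 alone, with the 2 overall values of 42.3 and 2.47% held fixed, gives 7.79 and 30.2%. Those 2 values come from the same peaks, so some closeness is built in. The largest gap, 3.13 percentage points, was in decile 10, where the observed interval (32.0 to 34.8%) lay above the computed value.

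The Tle list behaved in the same way. Tle peaks with Foxh1 had Foxa in 26.1% in the lowest and 28.3% in the highest decile, with a range of 22.7 to 28.3%, and Tle peaks without Foxh1 in 2.61 and 2.37%. In between, the share without Foxh1 reached 5.36% (decile 7). The share of Tle peaks with Foxh1 was 15.1% in the lowest and 91.1% in the highest decile. The lowest and highest deciles were observed at 6.14 and 26.0%, against 7.00 and 24.0% from that share alone. The largest gap was 1.94 percentage points, again in decile 10, where the observed interval (24.6 to 27.4%) lay above the computed value. In decile 1 (5.42 to 6.95%) and decile 8 (16.8 to 19.3%, computed 19.7%) the observed interval lay below it.

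**Figure D2:**
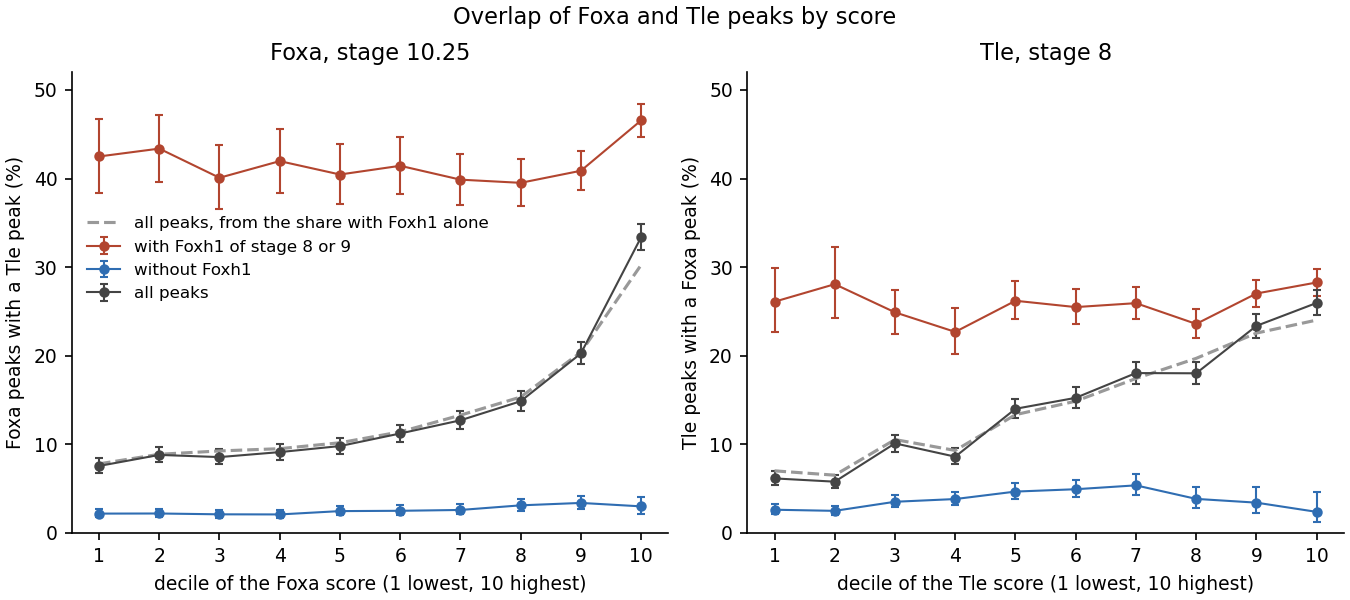
Share of Foxa peaks with a Tle peak (left) and of Tle peaks with a Foxa peak (right), in percent, by decile of the score of the list named on the axis; points are shares with Wilson 95% intervals, red with and blue without a Foxh1 peak of stage 8 or 9, grey all peaks, and the dashed line is the share computed from the presence of Foxh1 alone. All peaks climb, to 33.4% for Foxa and 26.0% for Tle in decile 10, while the peaks with Foxh1 stay between 39.5 and 46.6% on the left and between 22.7 and 28.3% on the right.

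Some dependence on the score remained within Foxh1 classes. Foxa peaks with Foxh1 at both stages had Tle in 61.6% (59.3 to 63.8%), 65.9% and 77.8% (75.8 to 79.7%) in 3 equal classes of rising Foxa score. Foxa peaks with Foxh1 at stage 9 only stayed level at 17.1, 15.9 and 16.8%, and those with Foxh1 at stage 8 only had Tle in 64.3, 46.4 and 59.8%, with no steady direction. Tle peaks with Foxh1 at both stages had Foxa in 31.9, 34.8 and 35.4% with rising Tle score. Foxa peaks with no Foxh1 had Tle in 2.17, 2.32 and 2.93%, and Tle peaks with no Foxh1 had Foxa in 2.54, 3.91 and 4.42%.

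Scores of shared and unshared peaks can be read in the same way. Foxa peaks with Tle had a median score of 17.6, against 10.1 for those without. Among Foxa peaks with Foxh1 the medians were 19.6 with Tle and 18.2 without, and among those with no Foxh1 10.6 and 9.37. Tle peaks with Foxa had a median score of 10.49, against 7.07 for those without. Among Tle peaks with Foxh1 the medians were 12.0 with Foxa and 11.8 without. Both medians were 5.78 among Tle peaks with no Foxh1, though the upper quartile was 8.45 with Foxa and 7.29 without. Most of the difference in median score between shared and unshared peaks was therefore absent once peaks were divided by Foxh1 of either stage. Medians of shared and unshared peaks were not compared by the stage of Foxh1. Foxa peaks with Foxh1 at both stages had Tle in 61.6% in their lowest and 77.8% in their highest score class. Whether the medians are as close within each stage of Foxh1 was thus not tested.

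Across the pairs, the Foxa score said little about the Tle score. Spearman's rank correlation between the 2 scores was 0.09 over the 5610 pairs, given as a description, since all pairs share the same 2 libraries. It was 0.04 over the 4864 pairs with Foxh1 and -0.01 over the 746 without. For 1-to-1 pairs it was 0.11. It was 0.35 over the 3463 pairs that covered at least 50% of each other, a rule that keeps peaks of similar width. Width and score are themselves related in each list (rank correlation of 0.74 for Foxa and 0.74 for Tle). How much width adds to the value of 0.35 was not tested. Both factors were in their highest decile in 317 pairs (5.65%). Of the pairs in the highest Foxa decile 22.8% had Tle in its highest decile, and 14.2% of those in the lowest Foxa decile. Of the pairs in the highest Tle decile 30.6% were in the highest Foxa decile, and 20.1% of those in the lowest Tle decile.

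Pairs came from the upper part of both lists, with a median position at 29.4% of the Foxa list and at 32.5% of the Tle list counted from the top. This position also followed the stage of Foxh1. Pairs with Foxh1 at stage 9 only sat high in the Foxa list (median 24.9%) and in the middle of the Tle list (53.3%). Pairs with Foxh1 at stage 8 only sat low in the Foxa list (63.1%) and higher in the Tle list (28.9%). Pairs with Foxh1 at both stages were high in both (24.9 and 21.4%), and pairs without Foxh1 were in the middle or below (50.4 and 59.7%). Of the 317 pairs in the highest decile of both lists, 312 had Foxh1 at both stages. That was already so for 989 of the 1036 pairs in the highest Tle decile, and for 1061 of the 1389 in the highest Foxa decile.

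**Figure D3:**
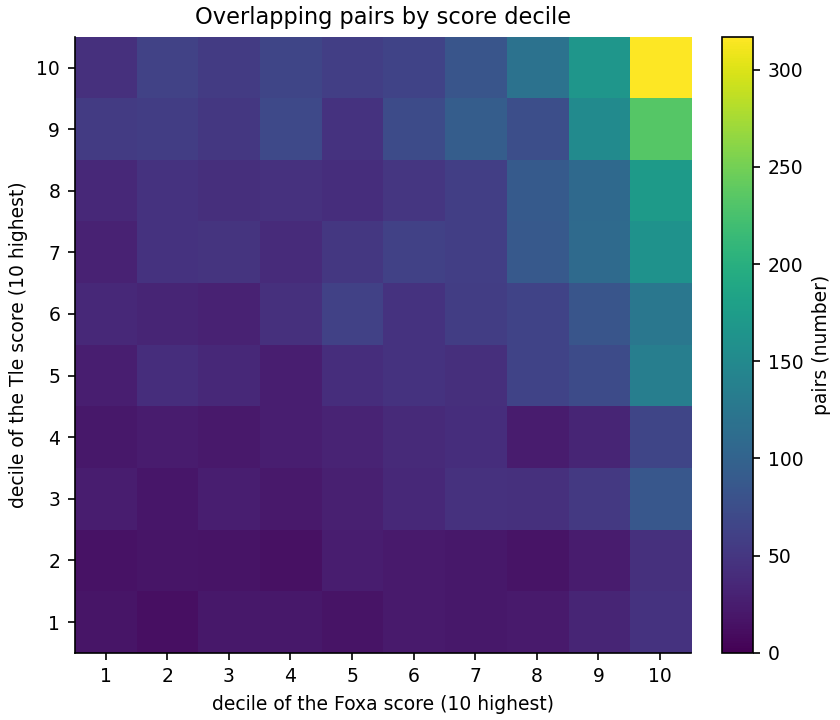
Number of overlapping pairs (colour scale) by decile of the Foxa score on the horizontal and of the Tle score on the vertical axis, 10 being the highest. The corner of highest scores holds 317 pairs and pairs are more frequent towards the upper end of either list, while no narrow diagonal is seen.

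The middles of paired peaks lay close together. These lists give no summits, so the middle of each peak was used. The median distance was 63 bases, with quartiles of 28.5 and 116.5 bases. It was at most 50 bases in 41.9% of the pairs, at most 100 in 69.5% and at most 200 in 90.4%. Distances between overlapping peaks are bounded by their widths, the bound being 50% of the summed widths. The median distance was 0.189 of that bound, where placing the middles evenly within it would give 0.5, and 86.6% of the pairs were below 0.5. Pairs of stronger Foxa peaks were closer in this relative sense, with 0.288 of the bound in the lowest and 0.141 in the highest Foxa decile, though their median distances in bases were similar (69.5 and 62.5 bases).

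The distance also differed with Foxh1. Off-centre peaks share a shorter stretch for a Foxh1 peak to meet. How much the way pairs were classed adds to the difference was not tested. The shared stretch had a median of 227 bases with Foxh1 and 158 without. Peaks of the pairs without Foxh1 were also narrower, with medians of 238 bases for Foxa and 233 for Tle, against 319 and 335 with Foxh1. The median distance was 60.5 bases with Foxh1 (0.175 of the bound) and 83.75 bases without (0.317 of the bound). Counting a Foxh1 peak on either peak of the pair, a rule added after seeing the data, the medians were 61.5 bases with (58.5 to 63.5) and 77.5 without (71.5 to 85.5). These were 0.177 and 0.300 of the bound. The pairs with Foxh1 at stage 8 only resembled those without, at 89.25 bases and 0.348. Those with Foxh1 at both stages were at 58.75 bases and 0.163, and those with Foxh1 at stage 9 only at 62 bases and 0.205. The exact binomial 95% intervals of the medians were 56.5 to 61.5 bases with Foxh1 at both stages and 76 to 91.5 bases without Foxh1.

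The neighbourhood of Foxa peaks gave a measure of how much of the overlap without Foxh1 stood out locally. Around Foxa peaks with Foxh1, 301 Tle middles per 1000 Foxa peaks lay within 100 bases. Between 5 and 10 kb away there were 10.6 per 100 bases of distance, a ratio of 28.5. Around Foxa peaks without Foxh1 the values were 14.8 (Poisson 95% interval 13.4 to 16.2, counting error only) and 7.37, a ratio of 2.00. Seen from Tle peaks, the ratio was 16.5 with Foxh1 and 3.36 without. Some Tle at Foxa peaks without Foxh1 was thus above the local level, by a far smaller ratio than with Foxh1. The level 1 to 2 kb from the middle also differed, at 19.4 around Foxa peaks with Foxh1 and 8.62 around those without, so Tle peaks were denser in the surroundings of Foxh1 too.

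**Figure D4:**
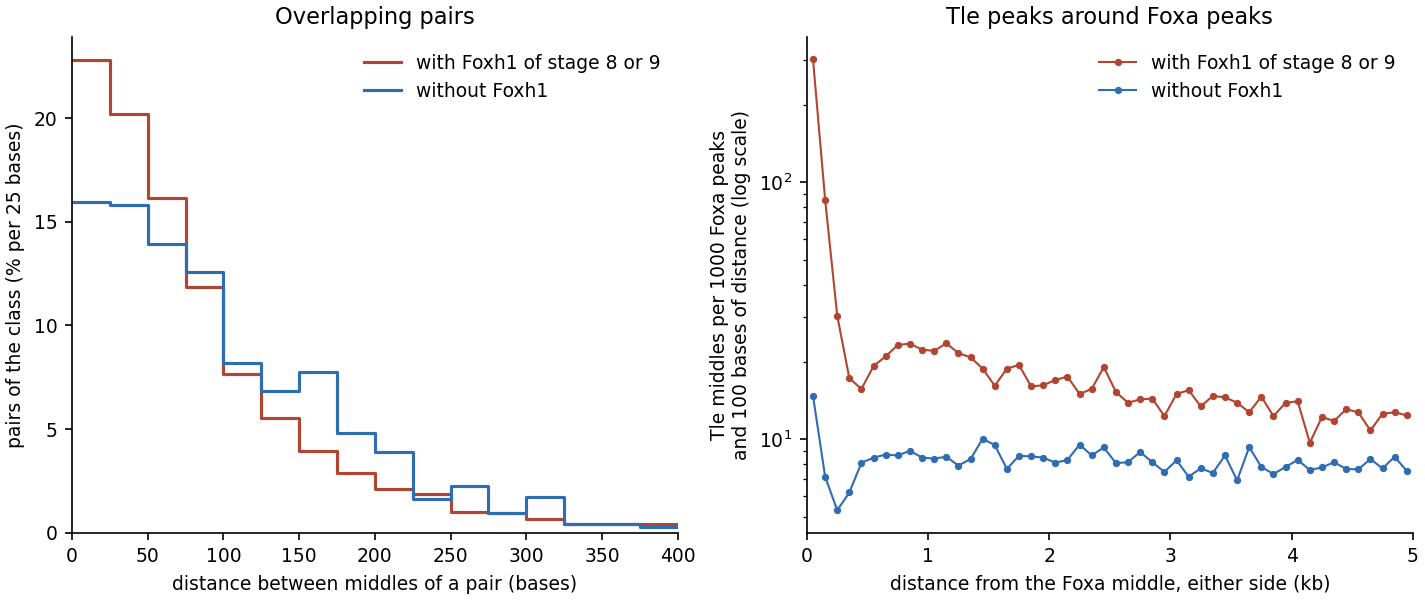
Left, distance between the middles of paired Foxa and Tle peaks up to 400 bases, in percent of the pairs of each class per 25 bases. Right, number of Tle middles per 1000 Foxa peaks and 100 bases of distance up to 5 kb on either side (log axis), with Foxh1 of stage 8 or 9 in red and without in blue. With Foxh1 the first 100 bases hold 301 Tle middles per 1000 Foxa peaks, and without it 14.8.

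Shared peaks were wider than unshared ones. Foxa peaks with Tle had a median width of 304 bases (quartiles 206 and 438), against 223 (166 and 308) for those without. Tle peaks with Foxa had a median of 319 bases (232 and 446), against 250 (190 and 351). Among Foxa peaks with Foxh1 the medians were 318 with Tle and 293 bases without, and among Tle peaks with Foxh1 334 with Foxa and 312 bases without. By decile of width, the share of Foxa peaks with Tle was 7.38% in the narrowest and 33.1% in the widest, close to the values by score. The share of Foxa peaks with Foxh1 was 13.9 and 62.6% in these 2 deciles. With Foxh1, Tle was present at 40.7 and 50.2% of them, and without Foxh1 at 2.01 and 4.58%. The share with Foxh1 alone gives 8.00 and 27.4%, so the widest decile stood further above the computed value than the decile of highest score. A wide peak has more bases with which to meet another list, and how much this adds was not tested. With middles within 100 bases, which takes no account of width, the shares of all Foxa and Tle peaks were 9.53 and 10.3%. The smallest Tle width of 190 bases was taken by 10060 Tle peaks (26.5%), and the smallest Foxa width of 130 bases by 2201 (5.38%).

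Within pairs the Foxa and Tle peaks had similar median widths (305 and 322 bases), but the widths of a pair were hardly related (rank correlation of 0.11). The Foxa peak was a median of 18 bases narrower (a width difference, Foxa minus Tle, of -18 bases, quartiles -151 and 108), and it was the wider one in 45.8% of the pairs. This small difference turned round in the upper 50% of both lists (3 bases) and among their 10000 highest peaks (11 bases). The stage of Foxh1 again set pairs apart, with a width difference of 57.5 bases where Foxh1 was at stage 9 only and -134 bases where it was at stage 8 only. The shared stretch had a median length of 214 bases (163 to 296), a median of 79.2% of the Foxa peak and 74.1% of the Tle peak. The Foxa peak lay wholly within the Tle peak in 27.6% of the pairs, and the Tle peak within the Foxa peak in 23.8%.

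Turning to Foxh1 peaks, the question is whether those with Tle also had Foxa more often. Of 17646 stage 9 Foxh1 peaks that were also found at stage 8, 3681 had both Tle and Foxa. The product of the separate Tle (61.4%) and Foxa (30.2%) shares would give 3272. Foxa was present at 34.0% of those with Tle (33.1 to 34.9%) and at 24.2% of those without (23.2 to 25.2%), an odds ratio of 1.61 (95% interval 1.51 to 1.73, counting error only). This value depended on the overlap rule and the lists. It was 1.13 with 50% of each peak required to overlap, and 1.73 in the upper 50% of the Foxa and Tle lists. Both factors were more frequent at higher Foxh1 peaks, however. The median Foxh1 score was 1165 with Tle and Foxa, 938.5 with Foxa alone, 598 with Tle alone and 498 with neither. When these Foxh1 peaks were cut into 3 equal classes of their score, the odds ratio was 1.29, 1.17 and 1.17 going up, each lower than the undivided 1.61. The intervals of these values all lay above 1, the lowest bound being 1.04. The Foxh1 score was not level within a class, however. In the highest class its median was 1367 with Tle and Foxa, 1239 with Foxa alone, 1194 with Tle alone and 1128.5 with neither. Whether the odds ratio stays above 1 at equal Foxh1 score was not tested.

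Foxh1 peaks of stage 9 only had Foxa in 50.7% with Tle and 44.2% without (odds ratio 1.29, 1.17 to 1.43). By Foxh1 score the values were 1.00 (0.824 to 1.22), 1.05 (0.882 to 1.26) and 1.47 (1.24 to 1.74), so the interval lay above 1 in the highest class alone, where Foxa stood at 70.1% with Tle and 61.4% without. With only the 10000 highest Foxa and Tle peaks the odds ratio of these Foxh1 peaks turned to 0.760. Foxh1 peaks of stage 8 only rarely had Foxa, in 3.31% with Tle and 2.17% without (odds ratio 1.54, 1.22 to 1.96), and with 50% of each peak required to overlap this value turned to 0.880. By Foxh1 score the odds ratio at stage 8 only was 1.38 (0.930 to 2.04), 1.75 (1.17 to 2.61) and 2.06 (1.18 to 3.60), with Foxa in 3.00% with Tle and 1.48% without in the highest class. Within the highest class of stage 9 only the Foxh1 score again differed. Its median was 737 with Tle and Foxa, 691 with Foxa alone, 601 with Tle alone and 588 with neither. Foxa was thus somewhat more frequent with Tle in most classes, without the Foxh1 score being level within them. The values also rest on few peaks at stage 8 only (79 with Tle and 15 without in the highest class). The Foxa share also differed widely with the Foxh1 score: over the 3 score classes of Foxh1 peaks of both stages, the Foxa share at peaks with Tle was 10.7, 26.0 and 57.1%.

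**Figure D5:**
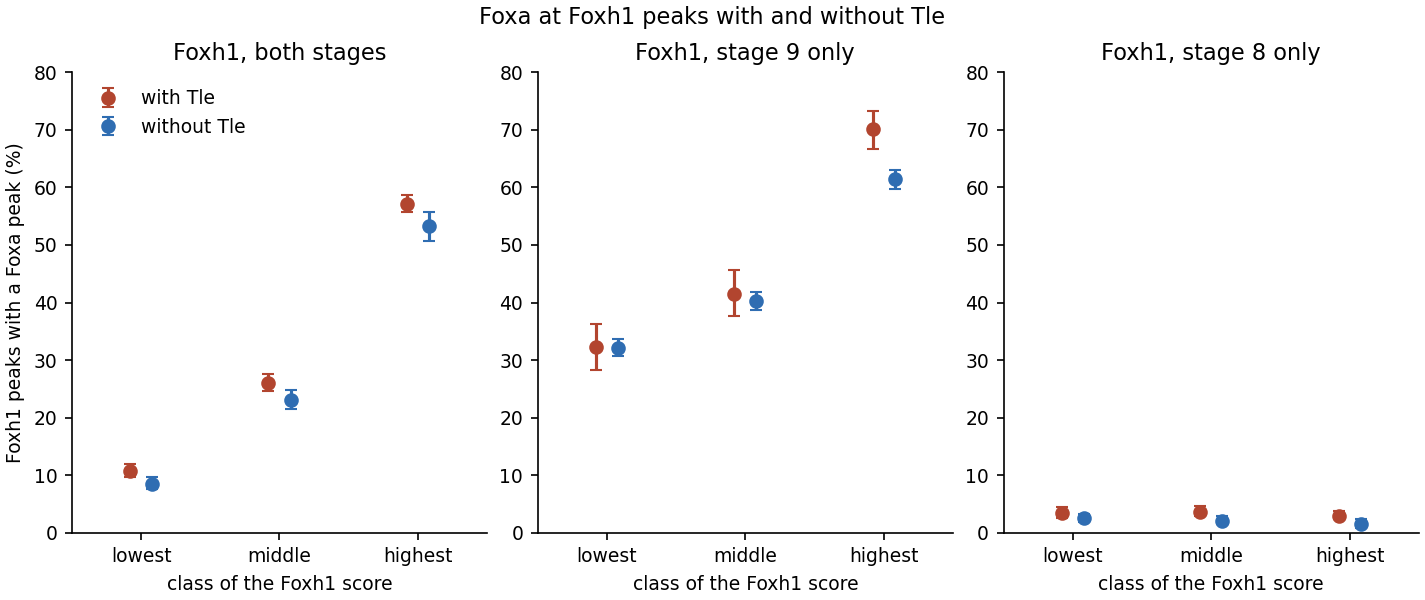
Share of Foxh1 peaks with a Foxa peak, in percent, for Foxh1 peaks with (red) and without (blue) a Tle peak, by class of the Foxh1 score and by the stages at which Foxh1 was found; whiskers are Wilson 95% intervals. The share climbs with the Foxh1 score where Foxh1 was present at stage 9, to 57.1% with Tle and 53.2% without in the highest class of both stages, and the red point is furthest above the blue one in the highest class of stage 9 only, at 70.1 and 61.4%.

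The early gastrula lists of Foxh1 and of Smad2/3, the effectors of Nodal, were set against the pairs as readouts the pairing did not use. Of the pairs, 676 (12.0%) overlapped a gastrula Foxh1 peak and 194 (3.46%) a Smad2/3 peak. Over all Foxa peaks the shares were 2.81 and 1.14%, and over all Tle peaks 1.91 and 0.517%. Foxa peaks with Tle had gastrula Foxh1 in 12.2% and those without Tle in 1.33%. Where blastula Foxh1 was present at both stages, these shares were 17.4% (16.2 to 18.6%) with Tle and 13.4% (11.9 to 15.1%) without. Smad2/3 was then found at 4.75% (4.11 to 5.48%) of the Foxa peaks with Tle and at 2.69% (2.02 to 3.57%) of those without. The Foxh1 score was not level between these groups. At Foxh1 peaks of both stages its median was 1165 with Tle and Foxa and 938.5 with Foxa alone. Whether the shares differ at equal Foxh1 score was not tested. Where Foxh1 was at stage 9 only, gastrula Foxh1 stood at 3.38% with Tle and 4.19% without, and those intervals overlap.

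Tle peaks with no later Foxa almost never had gastrula Foxh1 or Smad2/3. The gastrula lists are short, with 1290 Foxh1 and 480 Smad2/3 peaks. Foxa peaks overlapped them in 1148 and 465 cases, of which 469 and 270 were Foxa peaks without Tle. The contrast is therefore not particular to places with Tle. Gastrula Foxh1 was found at 675 of the 5507 Tle peaks with Foxa (12.3%) and at 49 of the 32412 without (0.151%, 0.114 to 0.200%). Smad2/3 was found at 194 and at 2 of them. Among Tle peaks with Foxh1 at both blastula stages, gastrula Foxh1 was present at 17.4% with Foxa and at 0.604% without.

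The 746 pairs without blastula Foxh1 had lower scores than the rest. The pairs with Foxh1 had median scores of 19.8 for Foxa and 12.2 for Tle, and those without had 10.7 and 6.12. A Foxh1 summit of stage 8 or 9 lay within 1000 bases of the middle of the shared stretch in 136 of them (18.2%, 15.6 to 21.2%). This was not counted for unpaired Foxa or Tle peaks without Foxh1, so the share cannot be called particular to the pairs. None overlapped a gastrula Foxh1 peak, which allows a share of up to 0.402% by the limit of 3 counts of 746 (0.512% by the Wilson interval), and 2 (0.268%) overlapped a Smad2/3 peak. Foxa peaks with neither Tle nor blastula Foxh1 had gastrula Foxh1 in 0.139% and Smad2/3 in 0.379%. These counts thus do not set the pairs apart from such Foxa peaks. The 2 pairs with Smad2/3 were also the 2 of the class that ranked highest. On scaffold 6 the Foxa peak from 82848667 to 82849779 (score 63.4) met the Tle peak from 82848605 to 82849778 (score 92.5), with middles 31.5 bases apart. On scaffold 2 the Foxa peak from 109851565 to 109852136 (score 58.3) met the Tle peak from 109851581 to 109852185 (score 61.3), with middles 32.5 bases apart. The next, on scaffold 220, joined the Foxa peak from 50579 to 51064 (score 44.9) with the Tle peak from 50893 to 51250 (score 23.1), whose middles were 250 bases apart.

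The pairs that ranked highest in both lists, by the worse of their 2 ranks, all had Foxh1 at both blastula stages and in the gastrula. The first was on scaffold 8, where the Foxa peak from 82989570 to 82990502 (rank 28, score 176) met the Tle peak from 82989704 to 82990724 (rank 217, score 139). On scaffold 1 the Foxa peak from 193640879 to 193641340 (rank 55) met the Tle peak from 193640847 to 193641316 (rank 269) with middles 28 bases apart. The Foxh1 peaks at that place ranked 30 of the stage 9 and 103 of the stage 8 list. Also on scaffold 1, the Foxa peak from 88259940 to 88260610 (rank 10, score 201) lay wholly within the Tle peak from 88259920 to 88261022 (rank 287). That place was the only one of these 5 with a Smad2/3 peak. On scaffold 9 the Tle peak from 43983906 to 43984437 (rank 301) lay within the Foxa peak from 43983871 to 43984471 (rank 12, score 199), with middles 0.5 bases apart. The last, on scaffold 8, joined the Foxa peak from 93116192 to 93116712 (rank 393) with the Tle peak from 93116285 to 93116834 (rank 254). All 5 were within the upper 0.960% of both lists.

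Most of the strongest peaks of either list were not shared. Only 33.4% of the highest Foxa decile had Tle, and 26.0% of the highest Tle decile had Foxa. The Foxa peaks of ranks 2, 4 and 13 were the highest without Tle. By this cut, set by those ranks, 10 of the 13 highest Foxa peaks had Tle, which does not hold for the decile. The unshared Foxa peaks lay on scaffold 237 from 120020 to 120639 (score 235), on scaffold 6 from 29244521 to 29245014 (score 227) and on scaffold 1 from 175143733 to 175144321 (score 196). The first 2 of them had Foxh1 at stage 9 only and the last at both stages. The 3 highest Tle peaks of all had no Foxa. They were on scaffold 6 from 133029295 to 133030011 (score 606), on scaffold 1 from 69463383 to 69464426 (score 603) and on scaffold 7 from 98696036 to 98697321 (score 548). The first 2 had Foxh1 at both stages and in the gastrula, and the last had Foxh1 at stage 8 only.

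Pairs were thinly spread, with many in a few windows. Of 7688 windows of 200 kb that held a Foxa or Tle peak, 2931 held a pair, 1625 of these held 1 pair, and 164 held 5 or more. The window on scaffold 1 from 38000001 to 38200000 held 16 pairs among 71 Foxa and 22 Tle peaks, with 41 stage 9 and 17 stage 8 Foxh1 peaks, and 14 of its pairs had Foxh1. The window on scaffold 5 from 2200001 to 2400000 also held 16 pairs, from 31 Foxa and 32 Tle peaks, and 15 of them had Foxh1. Over all pairs 86.7% had Foxh1, so these windows were near that share. The window on scaffold 2 from 10800001 to 11000000 held 13 pairs from 24 Foxa and 26 Tle peaks, a number reached by 1 other window. In the first window Foxa peaks far outnumbered Tle peaks, whereas in the others both were about as frequent. How many pairs such numbers of peaks would bring was not tested.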

How the data were processed

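The peak lists of Foxa (stage 10.25), Tle (stage 8) and Foxh1 (stages 8 and 9) were used. Lists of Foxh1 and Smad2/3 deposited with the series were added, which belong to none of its samples. Only their names place them in the early gastrula. The submitters' processing notes name MACS2 2.0.10, Bowtie 1.0.0, HOMER 4.7 and SAMtools, without saying what each did. No source used here names the genome build, the thresholds or the controls of peak calling, and the input samples of the series are of stages 8 and 9 only. The deposited score of Foxa and Tle peaks is the authors' value. Its scale (p or q) is not stated, so it was used only to rank peaks within a list. The deposited score of the other lists is 10 times a −log10 p. Depth is unknown.

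From these lists, overlaps of at least 1 base, shares with Wilson 95% intervals, Spearman's rank correlation and distances between middles were computed (Python 3.11.15, numpy 2.4.6, pandas 2.3.3, scipy 1.17.1). No test between conditions was possible with 1 library per list, and neighbouring peaks are not independent. A pair held Foxh1 where a Foxh1 peak overlapped the shared stretch, and a single peak where Foxh1 overlapped that peak. The overlap code was tested on simulated data. Named peaks are the 5 pairs with the best worse rank, the 3 such pairs without Foxh1, the 3 highest unshared peaks of each list and the 3 windows of 200 kb with the most pairs (equal counts in scaffold order). The comparison, members and settings were chosen with earlier results of these data known. Odds ratios at Foxh1 peaks, the neighbourhood counts, the shares computed from Foxh1 alone and the Foxh1 summit distance of 1000 bases were added after seeing the data. Coordinates count from 1. Gene names and sequences are not given, since no annotation or genome of the files' build was used here.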

Additional observations from a re-analysis of the deposited data

How the results depend on the processing

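The share of Foxa peaks with Tle was 8.46% when each peak had to cover 50% of the other, 9.53% with middles within 100 bases, 13.3% in the upper 50% of both lists, 11.7% among the 10000 highest peaks of each and 14.0% on the 10 scaffolds with the most peaks. In the same order the share of Tle peaks with Foxa was 9.13, 10.3, 14.2, 11.6 and 14.9%. Under the first 4 of these settings the share in the highest decile was 22.7, 23.8, 30.1 and 25.3% for Foxa and 15.7, 17.4, 19.7 and 13.5% for Tle. In the upper 50% and among the 10000 highest, the deciles were cut anew within the shortened lists. They thus hold fewer and higher peaks than the main decile. Shortening the lists also removes partners, which lowers these shares by construction. The first 2 settings shorten no list but drop pairs. The rank correlation of scores across pairs was 0.35 with the overlap of 50%, 0.13 with middles within 100 bases, 0.041 among the 10000 highest and 0.11 over 1-to-1 pairs. The median distance was 43.5, 40.5 and 59.5 bases under the first 3 settings and 60 bases over 1-to-1 pairs. The first 2 settings keep only closely centred pairs.

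The share of pairs with Foxh1 was 89.6, 88.8, 95.3 and 98.98% under the first 4 settings. It was 73.0% with the upper 50% of each Foxh1 list, 83.9% with a Foxh1 summit within 250 bases and 89.1% within 1000 bases. The share of Tle peaks with Foxa, with Foxh1, was 16.8, 18.8, 18.9 and 13.6% under the first 4 settings, 32.0% with the upper 50% of each Foxh1 list and 24.1% with a summit within 1000 bases. Without Foxh1 it was 1.85, 2.23, 2.16 and 0.580%, then 5.80% with the upper 50% of each Foxh1 list and 4.21% with a summit within 250 bases. It was lower without Foxh1 than with it under each setting tried.

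The width difference of pairs turned to 3 bases with the overlap of 50%, 3 bases in the upper 50% and 11 bases among the 10000 highest, and was -9 bases with middles within 100 bases. The cause was not tested. The odds ratio at Foxh1 peaks of both stages was 1.13, 1.41 and 1.73 under the first 3 settings. At Foxh1 peaks of stage 9 only it was 1.11 with the overlap of 50%, 1.05 in the upper 50% and 0.760 among the 10000 highest. At Foxh1 peaks of stage 8 only it was 0.880 with the overlap of 50%, 1.15 with middles within 100 bases and 1.16 among the 10000 highest, and the cause of these turns was not tested. The remaining 21 values stayed within the counting interval of the main value or, for the rank correlation, equal to 2 decimals.

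No paired analysis was possible because each list stands for 1 library or 1 pool and no result comes from a test between samples. For the same reason no replicate was left out, and the unknown depth limits every statement that a peak is missing from a list.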
